A study of Macaca mulatta with 38 samples.

Results

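The genes described here are 10 genes that mark astrocytes, the star-shaped support cells of the brain: GFAP, S100B, AQP4, HEPACAM, GJA1, SLC1A2, ALDOC, ALDH1L1, APOE and AGT. They were taken by name as rows of a table of read counts for 34619 genes, and 10 of 10 passed the filter on low counts that left 20794 genes to be tested. The table holds 38 RNA-seq libraries from cultures of wild-type (WT) rhesus macaque fetal cortex labelled as neural stem cells. Tissue was taken on embryonic day 42 (E42, Anterior and Posterior cortex) or embryonic day 77 (E77, Frontal and Occipital cortex), which gives 4 culture series. In all 4 series the cells grew on coated plates with FGF2 for the first 5 days in vitro, and differentiation then followed the removal of FGF2 and a change to NeuroBasal medium with B27, BDNF and NT-3. RNA came from 2 wells per condition, and each series has 1 library per day.

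Libraries taken with FGF2 present, on days 1, 3 and 5, are called stem here. Those of days 6 to 8 are called transition, and the later ones, from day 11 to day 17 at E42 and to day 20 at E77, terminal. The libraries of a phase were used as its replicates. In the main fits a p-value between phases measures the spread between days within a series and phase, pooled over all series and phases. For age within a phase and for region, the day in vitro was fitted as a block. There the p-value measures the spread left after day effects shared by the series. Either spread may be smaller than the spread between fetuses. The labels do not say how many fetuses gave each series. Age and region therefore cannot be told apart from fetus, dissection or culture run. Library totals lay between 20149635 and 56363300 counted reads, with a median of 27597365.5. The label of neural stem cells was checked against radial glia genes, and SOX2 was between 348 and 1126 CPM and NES between 288 and 1735 CPM in all 38 libraries. The E42 Anterior libraries stood apart in markers of another cell type. The sum of 10 fibroblast and pericyte markers was 14120 to 40240 CPM there and at most 419.8 CPM in any library of the other 3 series. Summed markers of ependyma and choroid plexus reached at most 168.9 CPM, of endothelium 148.7 CPM and of microglia 7.16 CPM. Each change between phases averaged over all series was also computed without E42 Anterior. The averaged comparisons of E77 with E42 were not. For them E42 Anterior was absent only where Occipital was compared with Posterior alone, which also drops Frontal.

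Astrocytes arise late in cortical development from the radial glia that first make neurons, and mature astrocytes buffer water and ions, clear glutamate from synapses and supply lipids. GFAP is an intermediate filament protein that radial glia of primates also make. AQP4 is the water channel of the processes that touch blood vessels, SLC1A2 (GLT-1) is the main glutamate transporter of the adult forebrain, and APOE is the lipid carrier of the brain. Several of these genes are also used by other cells, such as fibroblasts in the case of GJA1 and APOE. In bulk RNA a lower value can come from fewer cells of a type or from less RNA per cell, and the 2 cannot be told apart.

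Levels are given as CPM, read counts scaled to library size with TMM factors. To rank the genes against each other, the deposited RPKM values, which are divided by gene length, were used. GFAP led in the terminal libraries of E77 at 1188 ± 322 RPKM (SD, n = 8), followed by APOE at 929 ± 329 and S100B at 316 ± 95.7. GFAP and APOE differed by less than the SD of either, and their order was not the same in both series: GFAP led in Frontal (1335 ± 342 against 663 ± 179 RPKM, n = 4) and APOE in Occipital cultures (1196 ± 179 against 1040 ± 257 RPKM, n = 4). S100B lay below both by more than its SD. GJA1 (141 ± 31), AQP4 (121 ± 48.5), ALDOC (90.3 ± 46.9) and HEPACAM (67.3 ± 7.69 RPKM) came next, and each of these differed from its neighbour in the order by less than the larger SD of the pair. AGT (14.4 ± 17.1), SLC1A2 (9.54 ± 2.01) and ALDH1L1 (6.44 ± 1.51 RPKM) closed the list, and AGT had an SD larger than its mean, with every Occipital terminal library above every Frontal one. In the terminal libraries of E42 the order began in the same way, with GFAP at 348 ± 69.8 and APOE at 181 ± 124 RPKM (SD, n = 6). GJA1 stood at 99.3 ± 87.5 RPKM, with 176 ± 35.8 in Anterior and 22.2 ± 2.19 RPKM in Posterior cultures (n = 3 each), and AGT was last at 0.55 ± 0.32 RPKM.

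**Figure D1:**
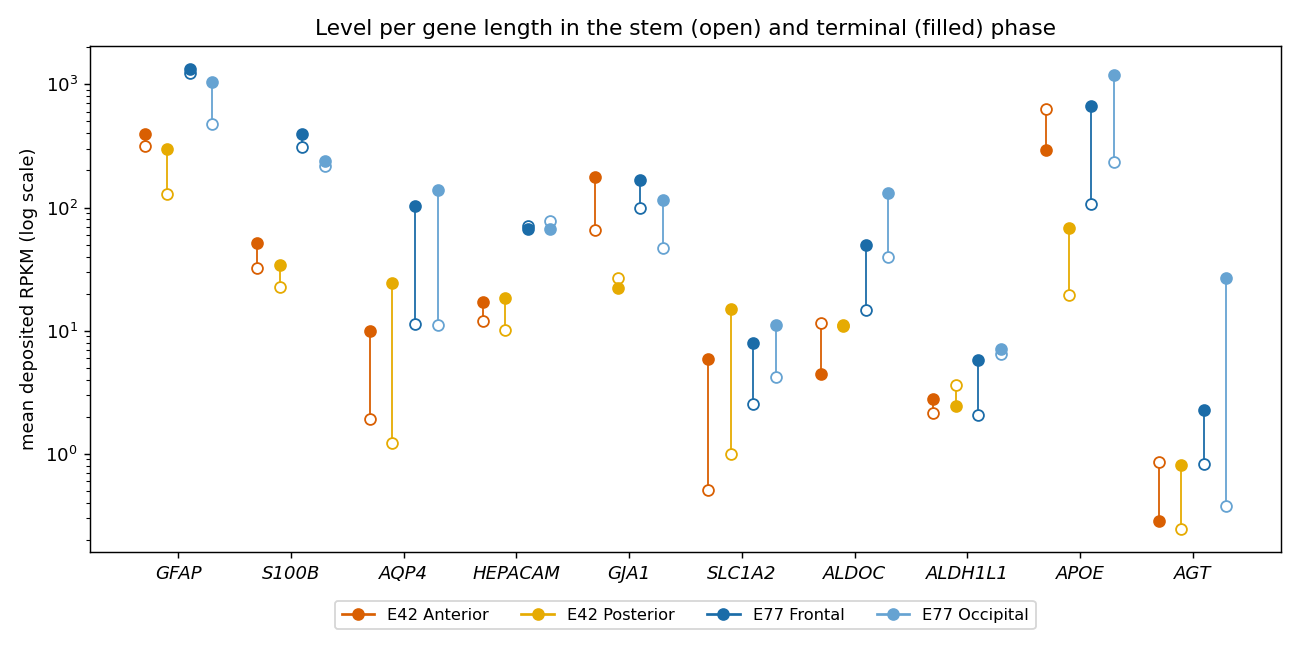
Mean deposited RPKM of the 10 genes (log axis) in the stem phase (open circles) and the terminal phase (filled circles) of the 4 series, with a line joining both means of a series. In the terminal phase GFAP and APOE have the highest means in all 4 series. In the stem phase APOE lies below S100B in E77 Frontal (107 against 311 RPKM) and below GJA1 and S100B in E42 Posterior. The AGT mean of E77 Occipital goes from 0.379 to 26.6 RPKM.

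The first question the design addresses is what changed as the cells left FGF2 and differentiated. Averaged over the 4 series with equal weights, 9 of the 10 genes were higher in the terminal than in the stem phase and 0 were lower. Of all genes tested, 31.9% were higher and 30.4% lower in this comparison (edgeR's quasi-likelihood test, with p-values adjusted by the Benjamini-Hochberg method over all 20794 genes and a threshold of 0.05). The value after ± is the standard error (SE) for a log2 fold change. The median log2 fold change was 0.76 over the 10 genes and 0.00084 over all genes tested. AQP4 rose 10.5-fold, SLC1A2 6.19-fold, AGT 3.9-fold and APOE 2.69-fold. GJA1, GFAP, ALDOC, S100B and HEPACAM rose between 1.22-fold and 1.75-fold. ALDH1L1 did not pass the test (log2 fold change 0.38 ± 0.19, adjusted p = 0.0894). When each series gave 1 value per phase, so that the 4 series were the replicates, 5 genes stayed past the threshold (AQP4, SLC1A2, GFAP, GJA1 and APOE). AGT, S100B, HEPACAM and ALDOC then had adjusted p-values from 0.0723 to 0.334 (limma). Without E42 Anterior the same 9 genes were called higher.

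**Figure D2:**
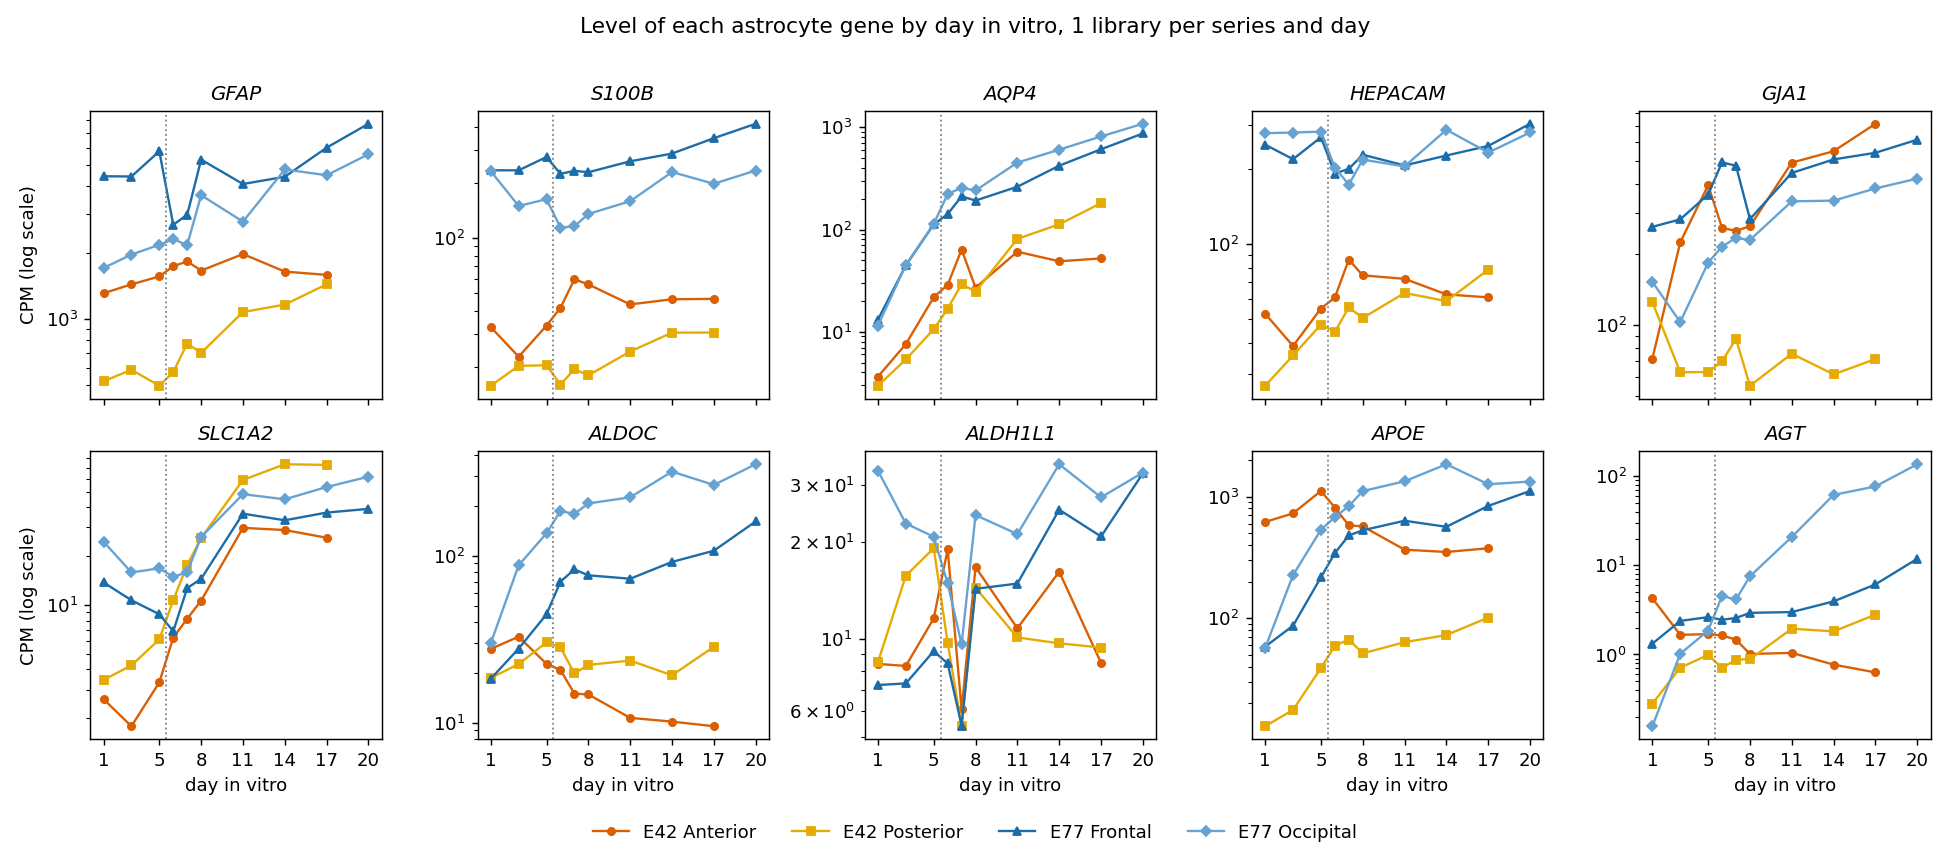
Level of each gene in CPM (log axis) against day in vitro, 1 point per library and 1 line per series. The dotted line marks the end of the FGF2 phase after day 5. AQP4 climbs in all 4 series, SLC1A2 climbs after FGF2 removal, and APOE, ALDOC and AGT fall in E42 Anterior while they rise in both E77 series.

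GFAP and S100B are the filament protein and the calcium-binding protein by which astrocytes are usually recognised. Both were already detected in the stem phase, GFAP at 497 to 5772 CPM. S100B stem levels were 15.7 to 33.4 CPM at E42 and 149 to 276 CPM at E77. GFAP in the E42 Posterior series was 520.5, 587 and 497 CPM on days 1, 3 and 5 and 1074, 1161 and 1436 CPM on days 11, 14 and 17. In E77 Occipital it was 1703, 1959 and 2170 CPM in the stem phase and 2765, 4771, 4492 and 5593 CPM on days 11, 14, 17 and 20. In both series all terminal libraries lay above all stem libraries, with log2 fold changes of 1.19 ± 0.24, adjusted p = 0.000262, and of 1.18 ± 0.23, adjusted p = 0.000149. The share of all genes tested whose stem and terminal libraries do not overlap was not computed. Here and below, such a gap between phases therefore only describes the libraries of the gene named. In E42 Anterior the level went from 1307, 1435 and 1558 CPM to 1970, 1640 and 1584 CPM, and in E77 Frontal from 4446, 4433 and 5772 CPM to 4097, 4421, 5993 and 7695 CPM. The phases did not overlap in E42 Anterior and overlapped in E77 Frontal, and neither change passed the test (0.27 ± 0.24, adjusted p = 0.408 in E42 Anterior and 0.18 ± 0.23, adjusted p = 0.532 in E77 Frontal). E77 Frontal was the only series in which GFAP was lower on day 6 (2675 CPM) than on day 5, and it exceeded its day 5 level again on days 17 and 20. GFAP is also made by radial glia. Of 12 other radial glia markers, 10 fell and 2 rose from the stem to the terminal phase (against 30.4% and 31.9% of all genes tested). Their sum was 10440 to 20420 CPM in the stem and 7320 to 10850 CPM in the terminal libraries. The part of radial glia in the GFAP result was not tested.

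S100B moved less. Its terminal libraries held 43.5 to 46.7 CPM in E42 Anterior, against 22.6 to 33.4 CPM in the stem phase. In E42 Posterior the ranges were 24.1 to 30.6 CPM against 15.7 to 20.3 CPM, so the phases did not overlap in either E42 series. In E77 Frontal they were 261 to 418 CPM against 233 to 276 CPM, with some overlap. The log2 fold changes of these 3 series were 0.62 ± 0.18, adjusted p = 0.00691, then 0.60 ± 0.18, adjusted p = 0.00837, and 0.41 ± 0.16, adjusted p = 0.0429. In E77 Occipital the phases overlapped and the change did not pass (0.17 ± 0.16, adjusted p = 0.414). These calls rested on single libraries. Without day 3 the E42 Anterior value was 0.43 (adjusted p = 0.0904). The E42 Posterior value was 0.43 (adjusted p = 0.0991) without day 1, 0.48 (adjusted p = 0.0666) without day 14 and 0.48 (adjusted p = 0.0703) without day 17. The E77 Frontal value was 0.38 (adjusted p = 0.119) without day 1, 0.39 (adjusted p = 0.114) without day 3, 0.39 (adjusted p = 0.0801) without day 17 and 0.27 (adjusted p = 0.192) without day 20.

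AQP4 rose in all 4 series. In the E77 Occipital series it was 11.5, 45.1 and 114 CPM on days 1, 3 and 5, 223, 256 and 241 CPM on days 6, 7 and 8, and 452, 604, 814 and 1082 CPM on days 11, 14, 17 and 20. In E77 Frontal the stem libraries gave 13.2, 44.7 and 112 CPM and the terminal libraries 262, 421, 609.7 and 869 CPM. The E42 series started lower, with 3.64, 7.58 and 21.8 CPM in Anterior and 2.97, 5.37 and 10.6 CPM in Posterior stem libraries. They reached 60.7, 48.9 and 52.2 CPM and 81.1, 112 and 181 CPM in the terminal phase. In each of the 4 series every terminal library lay above every stem library. The log2 fold change was 3.70 ± 0.69, adjusted p = 0.000101, in E77 Occipital and 3.25 ± 0.68, adjusted p = 0.000306, in E77 Frontal. It was 4.31 ± 0.75, adjusted p = 4.48e-05, in E42 Posterior and 2.29 ± 0.68, adjusted p = 0.0102, in E42 Anterior. The E42 Anterior call was lost without day 1 (1.85, adjusted p = 0.0672) or without day 3 (2.06, adjusted p = 0.0535). The rise began while FGF2 was present. On day 5 AQP4 stood 9.91-fold above day 1 in E77 Occipital, 8.51-fold in E77 Frontal, 5.98-fold in E42 Anterior and 3.57-fold in E42 Posterior, each a ratio of 1 library to 1 library, and 16.7% of all genes tested were likewise higher on day 5 in all 4 series. E42 Anterior alone had its highest value in the transition, on day 7.

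The adhesion protein HEPACAM (GlialCAM) and the gap junction protein GJA1 (connexin 43) act at contacts between astrocytes. HEPACAM rose in E42 Posterior from 26.9, 35.5 and 47.3 to 63.4, 58.8 and 78.6 CPM, without overlap (0.87 ± 0.17, adjusted p = 0.000197). In E77 Frontal and E77 Occipital it stayed between 173 and 304 CPM on all days, and the log2 fold changes of 0.0019 ± 0.16, adjusted p = 0.996, and -0.16 ± 0.16, adjusted p = 0.451, did not pass. The E42 Anterior value was 0.42 ± 0.17, adjusted p = 0.0569. GJA1 behaved differently in the E42 series. In E42 Anterior it went from 71.9, 225 and 393 CPM on days 1, 3 and 5 to 491, 549 and 718 CPM on days 11, 14 and 17 (1.35 ± 0.34, adjusted p = 0.00281). In E42 Posterior it went from 125, 62.9 and 63.1 to 75.5, 61.7 and 71.6 CPM, with overlapping phases (-0.27 ± 0.34, adjusted p = 0.562). In E77 Occipital the stem libraries held 153, 103 and 184 CPM and the terminal libraries 336, 338, 381 and 419.7 CPM (1.33 ± 0.33, adjusted p = 0.00164). E77 Frontal rose by 0.81 on the log2 scale (adjusted p = 0.0416). That call was lost without any 1 of days 1, 3, 14, 17 and 20, with values from 0.72 (adjusted p = 0.0928) without day 20 to 0.84 (adjusted p = 0.0542) without day 14. The E42 Anterior call of GJA1 was lost when the fit held only the 6 libraries compared (1.35 ± 0.56, adjusted p = 0.115). The fibroblast and pericyte marker sum of E42 Anterior was 22750 to 40240 CPM in the stem phase and 16710 to 26510 CPM in the terminal phase, and its part in the GJA1 level there was not tested.

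SLC1A2, which clears glutamate from synapses, had terminal levels (25.9 to 73.7 CPM, n = 14) that all lay above its stem levels (1.78 to 24.5 CPM, n = 12) across the 4 series. In E42 Anterior it was 2.62, 1.78 and 3.33 CPM on days 1, 3 and 5 and 29.8, 28.9 and 25.9 CPM on days 11, 14 and 17. In E42 Posterior it was 3.44, 4.23 and 6.12 CPM and 58.9, 73.7 and 72.9 CPM. Both E42 series were higher on each successive day from day 5 to day 8. The E77 series first declined. E77 Frontal went from 13.8 CPM on day 1 to 6.87 CPM on day 6, and E77 Occipital from 24.5 to 14.9 CPM on the same days. Terminal levels then reached 36.5, 33.2, 37.1 and 39.1 CPM in Frontal and 48.1, 44.8, 53.3 and 61.7 CPM in Occipital cultures. The log2 fold change was 3.90 ± 0.31, adjusted p = 3.42e-10, in E42 Posterior and 3.45 ± 0.31, adjusted p = 4.91e-09, in E42 Anterior. It was smaller in the E77 series, at 1.72 ± 0.27, adjusted p = 9.66e-06, in Frontal and 1.45 ± 0.27, adjusted p = 7.32e-05, in Occipital cultures. Neuron markers moved in the same direction: the sum of 10 such genes was 418 to 1785 CPM in the stem and 2744 to 5212 CPM in the terminal libraries, with 9 of 10 called higher (31.9% of all genes tested). Their part in the SLC1A2 result was not tested.

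The metabolic enzymes ALDOC (aldolase C, a glycolytic enzyme) and ALDH1L1 (a folate enzyme often used to label astrocytes) did not move together. ALDOC rose in E77 Frontal from 18.3, 27.8 and 44.6 to 72.8, 91.9, 107 and 160.5 CPM and in E77 Occipital from 29.9, 87.7 and 136 to 224, 319, 266 and 353 CPM, without overlap in either (1.84 ± 0.33, adjusted p = 6.01e-05, and 1.78 ± 0.33, adjusted p = 8.59e-05). It fell in E42 Anterior from 27.7, 32.8 and 22.5 to 10.7, 10.2 and 9.53 CPM, again without overlap (-1.45 ± 0.35, adjusted p = 0.00196). In E42 Posterior the phases overlapped and the value was 0.0035 ± 0.34, adjusted p = 0.996. ALDH1L1 passed in E77 Frontal alone, where it went from 7.23, 7.31 and 9.2 CPM to 14.9, 25.2, 20.8 and 32.6 CPM (1.56 ± 0.39, adjusted p = 0.00179). In the other 3 series its values were 0.33 (adjusted p = 0.561) in E42 Anterior, -0.56 (0.273) in E42 Posterior and 0.18 (0.72) in E77 Occipital. On day 7 ALDH1L1 was at the lowest level of its series in 4 of 4 series. Of all genes tested, 2.49% were lower on day 7 than on days 6 and 8 in all 4, which does not require day 7 to be the lowest day.

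The secreted proteins APOE and AGT (angiotensinogen, the precursor of the angiotensin peptides) showed the largest contrasts between series. APOE in E42 Posterior was 13, 17.7 and 39.1 CPM on days 1, 3 and 5 and 63.7, 72.9 and 102 CPM on days 11, 14 and 17 (1.77 ± 0.50, adjusted p = 0.00576). In E77 Frontal it went from 58.6, 87 and 217 to 633, 564, 838 and 1111 CPM (2.70 ± 0.50, adjusted p = 6.85e-05). In E77 Occipital it went from 57, 227 and 534 to 1334, 1842, 1262 and 1328 CPM (2.40 ± 0.49, adjusted p = 0.000245). In these 3 series every terminal library exceeded every stem library. E42 Anterior went the other way: APOE was 618, 728 and 1111 CPM in the stem phase, the highest stem levels of any series, and 366, 351 and 376 CPM in the terminal phase. The phases did not overlap, yet the change did not pass (-1.17 ± 0.48, adjusted p = 0.0622). Microglia also make APOE. Of 11 microglia markers, 10 had at most 12 reads in any library and CD68 had at most 193, and the part of microglia in the APOE levels was not tested.

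AGT had the lowest mean of the 10 genes over the E42 libraries, 0.498 RPKM, with 10 to 134 reads per library there. In the E42 Anterior stem libraries SLC1A2 was lower still, at 0.508 against 0.85 RPKM. In E77 Occipital AGT was 0.157, 1.02 and 1.86 CPM on days 1, 3 and 5 (the day 1 library had 4 reads), 4.53, 4.15 and 7.54 CPM on days 6, 7 and 8, and 20.9, 61.9, 77 and 137 CPM on days 11, 14, 17 and 20. This 72.5-fold rise was the largest change of any of the 10 genes in any series (6.18 ± 0.65, adjusted p = 2.86e-08), and AGT rose between each pair of neighbouring days except from day 6 to day 7. The log2 fold change was 6.97 without day 5 and 5.67 without day 1, and it passed with each library left out. In the same series the sum of 12 oligodendrocyte lineage markers was 1222 to 1400 CPM in the stem and 1776 to 4765 CPM in the terminal libraries, and their part in the AGT rise was not tested. In E77 Frontal AGT went from 1.32, 2.38 and 2.63 to 2.99, 3.94, 6.12 and 11.9 CPM (1.57 ± 0.54, adjusted p = 0.0193). In E42 Posterior it went from 0.28, 0.71 and 0.989 to 1.95, 1.82 and 2.8 CPM (1.75 ± 0.63, adjusted p = 0.0293). In E42 Anterior it fell from 4.28, 1.66 and 1.69 to 1.04, 0.77 and 0.629 CPM (-1.64 ± 0.60, adjusted p = 0.035). No series had overlapping phases. Outside E77 Occipital the AGT calls rested on single libraries. The E77 Frontal value was 1.33 (adjusted p = 0.0918) without day 1 and 1.05 (adjusted p = 0.12) without day 20. The E42 Posterior value was 1.32 (adjusted p = 0.15) without day 1, 1.74 (adjusted p = 0.0708) without day 3 and 1.46 (adjusted p = 0.121) without day 17. The E42 Anterior value was -1.07 (adjusted p = 0.236) without day 1, and the call was also lost without day 11, 14 or 17, with -1.499 (adjusted p = 0.105) without day 17.

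By series, the E42 Anterior cultures had 4 of the 10 genes higher and 2 lower (17.9% and 16.2% of all genes tested). In E42 Posterior 7 were higher and 0 lower (21.5% and 17.8%). In E77 Frontal 8 were higher and 0 lower (22.5% and 20.7%), and 5 were higher without day 1 or without day 20. In E77 Occipital 7 were higher and 0 lower (21.6% and 19.6%), and these 7 calls held with each library left out in turn. In E42 Anterior the count of higher genes was 2 without day 3. The median log2 fold changes of the 10 genes were 0.38, 1.03, 1.57 and 1.39 in the same order, and those of all genes tested lay between -0.0071 and 0.038.

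**Figure D3:**
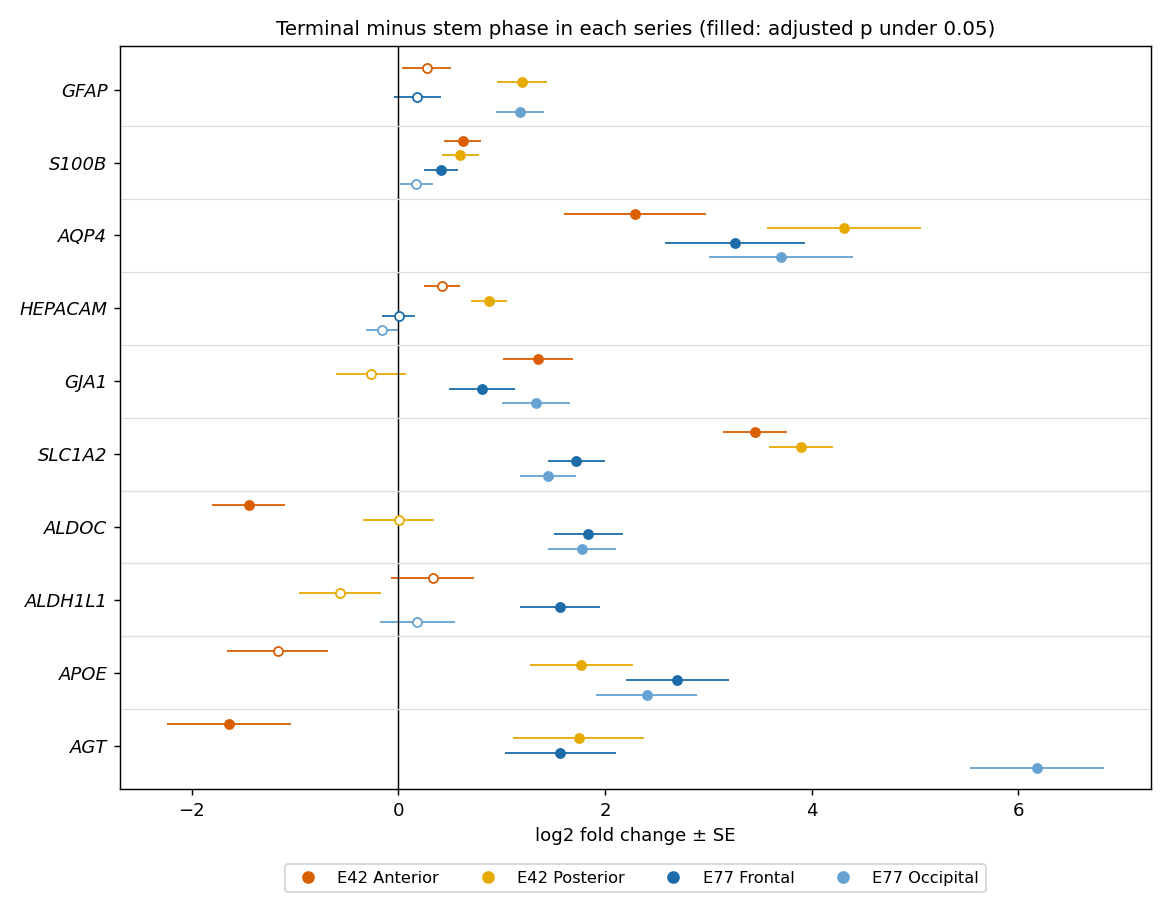
Terminal minus stem log2 fold change of the 10 genes in each series (edgeR), with SE bars. Filled points passed an adjusted p of 0.05. AQP4 and SLC1A2 lie to the right of 0 in all 4 series, and the E42 Anterior points of ALDOC, APOE and AGT lie to the left.

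Split at the transition, 4 of the 10 genes had risen by the transition and 0 had fallen (21.6% and 20% of all genes tested). Averaged over the series, these were AQP4 (1.88, adjusted p = 5.56e-05), APOE (1.15, 0.000378), SLC1A2 (0.93, 8.26e-06) and ALDOC (0.44, 0.0379). Mean AQP4 rose in every series. Mean SLC1A2 rose in both E42 series but went only from 2.545 to 2.607 RPKM in E77 Frontal and 4.193 to 4.362 in E77 Occipital. Mean ALDOC fell from 11.58 to 7.445 RPKM in E42 Anterior, was 10.99 and 11 in E42 Posterior, and rose in both E77 series. Mean APOE fell from 628.5 to 531.5 RPKM in E42 Anterior and rose in the other series. From the transition to the terminal phase 8 genes rose and 0 fell (22.7% and 19.2%). Averaged over the series, APOE and ALDOC, which had risen early, did not pass in this second step (0.28 ± 0.23, adjusted p = 0.357, and 0.10 ± 0.16, adjusted p = 0.646). The series went different ways. Mean APOE fell from 531.5 to 294 RPKM in E42 Anterior. It rose from 51.2 to 67.9 in E42 Posterior, 404 to 663 in E77 Frontal and 781 to 1196 RPKM in E77 Occipital. Mean ALDOC fell from 7.445 to 4.45 RPKM in E42 Anterior and was 11 and 11.1 RPKM in E42 Posterior. It rose from 37.3 to 49.6 in E77 Frontal and 92.7 to 131 RPKM in E77 Occipital. AGT, GFAP, S100B and GJA1 passed in the second step and not in the first, with 1.42, 0.54, 0.44 and 0.55 on the log2 scale (adjusted p = 0.000208, 0.000459, 0.000129 and 0.00799); the difference between the steps was not tested. AQP4 and SLC1A2 passed in both steps. HEPACAM (0.21, adjusted p = 0.0422) and ALDH1L1 (0.48, 0.0464) passed narrowly. The ALDOC call of the first step was lost in 11 of 24 fits with 1 library left out (log2 fold change 0.32 to 0.57). The HEPACAM and ALDH1L1 calls of the second step were lost in 16 and 18 of 26 such fits (0.16 to 0.24 and 0.39 to 0.58). With the 4 series as replicates, AQP4 alone stayed past the threshold in the first step, and AQP4 and SLC1A2 in the second. Without E42 Anterior, S100B fell from the stem phase to the transition (-0.26, adjusted p = 0.0471) and AGT rose (1.02 ± 0.36, adjusted p = 0.0261), and GJA1 did not pass in the second step (0.34 ± 0.19, adjusted p = 0.15).

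The second question is how cells from E77 cortex differed from those of E42, on matched days. E77 levels were higher for 7 of the 10 genes in the stem phase and lower for 0 (28.8% and 31.4% of all genes tested), and higher for 8 in the transition and lower for 0 (25.7% and 31.1%). In the terminal phase 9 were higher and 0 lower (20.6% and 24.4%). Markers of other cell types differed between the ages as well. In the terminal phase all 12 oligodendrocyte lineage markers were higher at E77, among them SOX10 (4.70) and OLIG2 (4.24), and their sum was 676 to 4765 CPM against 267 to 769 CPM at E42. Of 10 neuron markers 0 were higher and 8 lower, with sums of 2744 to 3654 CPM at E77 and 3428 to 5212 CPM at E42. The part of these cells in the age differences of the 10 genes was not tested. The median log2 difference of the 10 genes was 1.32, 1.70 and 2.19 in the 3 phases, and between -0.037 and -0.015 for all genes tested.

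The E42 libraries of S100B held 15.7 to 59.6 CPM and its E77 libraries held 114 to 418 CPM, and the ages did not overlap. Within a phase, all E77 libraries lay above all E42 libraries for 9.41% of all genes tested in the stem phase, 9.53% in the transition and 5.79% in the terminal phase. All E77 libraries lay below all E42 libraries for a further 6.64%, 9.74% and 5%. The share of genes with the ages apart over all days together was not computed. The S100B log2 difference was 3.16 ± 0.11, adjusted p = 9.86e-18, in the stem phase, 2.45 ± 0.10, adjusted p = 1.06e-15, in the transition and 2.74 ± 0.10, adjusted p = 7.49e-17, in the terminal phase. HEPACAM likewise separated the ages completely, with 26.9 to 86.3 CPM at E42 and 173 to 304 CPM at E77. Its difference was 2.65 ± 0.11, adjusted p = 1.14e-15, in the stem phase and 1.82 ± 0.11, adjusted p = 6.83e-13, in the terminal phase. GFAP was higher at E77 by 1.81 ± 0.13, adjusted p = 3.44e-11, in the stem, 1.48 in the transition and 1.58 ± 0.13, adjusted p = 4.12e-10, in the terminal phase. AQP4 was higher by 2.59, 2.82 and 2.62 (adjusted p = 1.71e-10, 1.93e-11 and 3.47e-11). For these 4 genes the sign and the call were the same in both pairings of region, Frontal with Anterior and Occipital with Posterior, in all 3 phases.

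The other genes depended on phase or region. ALDOC was 0.84 ± 0.20, adjusted p = 0.000946, in the stem phase and 3.32 ± 0.21, adjusted p = 1.53e-11, in the terminal phase, where its E77 libraries (72.8 to 353 CPM) lay clear of its E42 libraries (9.53 to 28.5 CPM). AGT did not pass in the stem phase (0.13 ± 0.39, adjusted p = 0.788) and reached 3.41 ± 0.34, adjusted p = 2.51e-08, in the terminal phase. SLC1A2 showed the opposite order: E77 was higher in the stem phase (2.07 ± 0.15, adjusted p = 1.48e-11), but not past the threshold in the transition (0.27 ± 0.13, adjusted p = 0.0881) or the terminal phase (-0.08 ± 0.12, adjusted p = 0.634). ALDH1L1 passed only in the terminal phase (1.13 ± 0.17, adjusted p = 7.74e-06). GJA1 was higher at E77 by 1.18 in the transition and 1.05 in the terminal phase, and its stem phase call (0.60, adjusted p = 0.0396) was lost in 8 of 12 fits with 1 library left out. Between Frontal and Anterior alone, the terminal GJA1 difference was -0.22 ± 0.33 (adjusted p = 0.634).

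APOE gave opposite answers in the region pairings. In the stem phase E77 Frontal lay below E42 Anterior, with a log2 difference of -2.99 ± 0.33 (adjusted p = 1.53e-07), while E77 Occipital lay above E42 Posterior, with 3.32 ± 0.34 (adjusted p = 1.5e-07). The average of both, 0.16 ± 0.22, adjusted p = 0.548, therefore lies between 2 opposite values. In the transition the Frontal to Anterior difference was -0.56 ± 0.31 (adjusted p = 0.148) and the Occipital to Posterior difference 3.86 ± 0.34 (adjusted p = 1.96e-08). In the terminal phase both were positive, 0.998 ± 0.31 (adjusted p = 0.0127) and 4.14 ± 0.34 (adjusted p = 3.64e-09), and the average passed (2.57 ± 0.23, adjusted p = 5.66e-09). The APOE level of E42 Anterior, between 351 and 1111 CPM, stood in the series with the high fibroblast and pericyte marker sum, and the part of those cells in the result was not tested. ALDOC, too, differed by pairing in the stem phase, with -0.017 ± 0.28 (adjusted p = 0.965) for Frontal against Anterior and 1.70 ± 0.28 (adjusted p = 5.34e-05) for Occipital against Posterior.

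**Figure D4:**
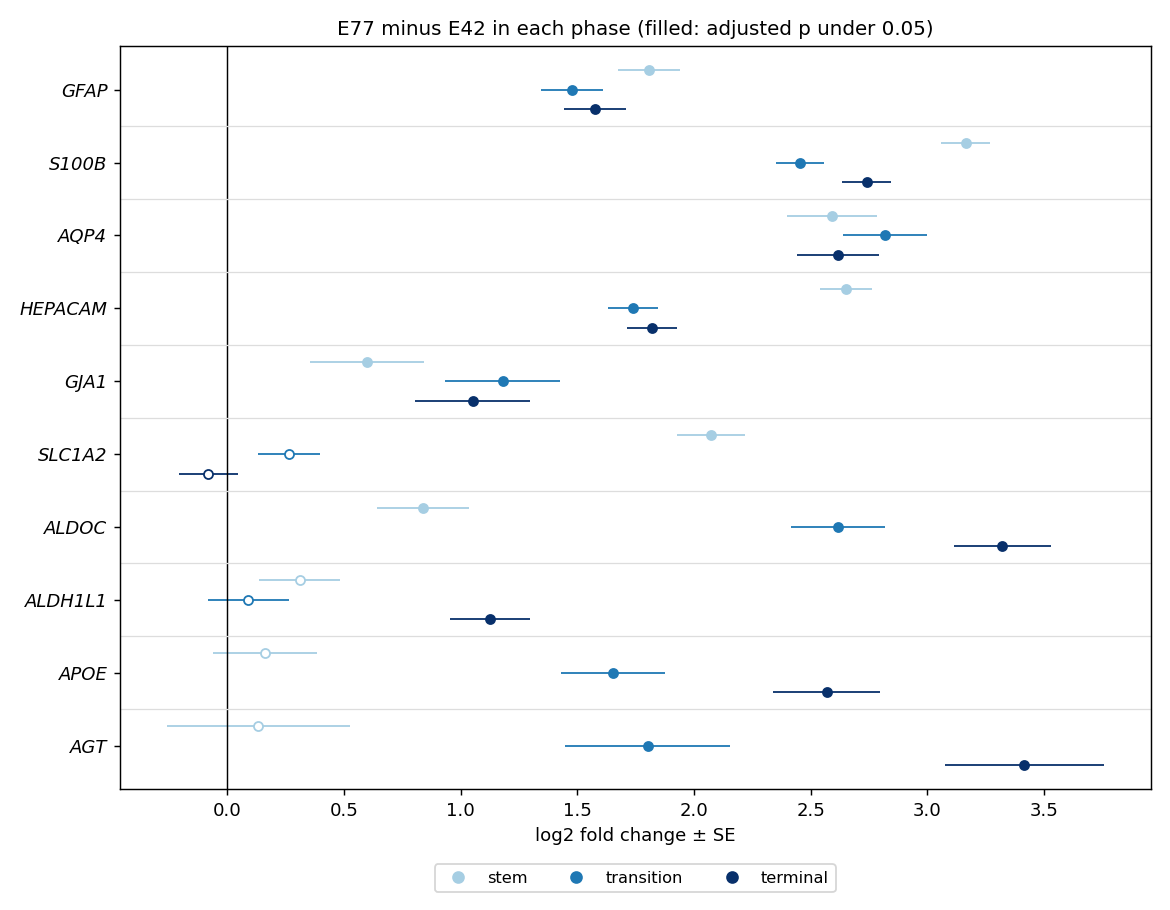
E77 minus E42 log2 fold change of the 10 genes in the stem, transition and terminal phases (edgeR with day as a block), with SE bars. Filled points passed an adjusted p of 0.05. S100B, HEPACAM, AQP4 and GFAP lie to the right of 0 in all 3 phases, ALDOC, AGT and APOE move further right from stem to terminal, and SLC1A2 moves left.

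Whether the terminal against stem change itself differed between the ages was tested as an interaction of group means. The day 20 libraries, which exist at E77 only, are part of it. It was larger at E77 for 3 of the 10 genes and smaller for 2 (9.46% and 9.95% of all genes tested). AGT (3.82 ± 0.59, adjusted p = 6.3e-05), ALDOC (2.53 ± 0.34, adjusted p = 8.6e-06) and APOE (2.25 ± 0.48, adjusted p = 0.00156) rose more at E77. SLC1A2 (-2.09 ± 0.28, adjusted p = 6.77e-06) and HEPACAM (-0.73 ± 0.17, adjusted p = 0.00281) had a smaller change at E77. The AGT, ALDOC and SLC1A2 differences passed in both region pairings. APOE passed between Frontal and Anterior (3.87 ± 0.69, adjusted p = 0.000459) and not between Occipital and Posterior (0.63 ± 0.66, adjusted p = 0.616). HEPACAM was -0.42 ± 0.23 (adjusted p = 0.25) and -1.03 ± 0.23 (adjusted p = 0.00742) in the same pairings. For GFAP (-0.051, adjusted p = 0.905) and AQP4 (0.18, 0.875) no age difference of the change was detected, although the SE of the AQP4 value was 0.64. Without day 20 the same 5 genes passed, with AGT at 3.32 (adjusted p = 0.000115), ALDOC at 2.35 (adjusted p = 3.43e-05), APOE at 2.16 (adjusted p = 0.00433), SLC1A2 at -2.16 (adjusted p = 1.81e-05) and HEPACAM at -0.81 (adjusted p = 0.00148), and the AQP4 value was -0.11 (adjusted p = 0.935).

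The third question is whether cultures from different cortical regions differed. At E42, over all days, 5 of the 10 genes were higher in Anterior and 2 lower (25.1% and 30.3% of all genes tested). At E77, 3 were higher in Frontal and 5 lower (16.3% and 13.8%). GFAP and S100B were higher in the more rostral culture at both ages: GFAP by 1.10 ± 0.11, adjusted p = 2.66e-09, at E42 and 0.69 ± 0.10, adjusted p = 6.9e-06, at E77, and S100B by 0.96 ± 0.082, adjusted p = 2.04e-10, at E42 and 0.68 ± 0.076, adjusted p = 6.6e-08, at E77. S100B in Frontal cultures (223 to 418 CPM) overlapped the Occipital range (114 to 233 CPM) only between 223 and 233 CPM. SLC1A2 was lower in the rostral culture at both ages (-1.06 ± 0.11, adjusted p = 1.38e-08, at E42 and -0.68 ± 0.10, adjusted p = 8.98e-06, at E77). At E77 the GFAP difference passed in the stem phase (1.33) and not in the transition (0.41, adjusted p = 0.174) or the terminal phase (0.32, 0.225). For S100B and SLC1A2 the sign and the call held in each of the 3 phases at both ages, in fits by phase that were added after the data were seen.

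ALDOC was lower in Frontal than in Occipital cultures, with a log2 difference of -1.39 ± 0.15, adjusted p = 1.46e-07, over all days and similar values by phase (-1.41 in the stem and -1.47 in the terminal phase). ALDH1L1 was lower in Frontal (-0.95 ± 0.14, adjusted p = 4.53e-06), with -1.72 ± 0.25 (adjusted p = 1.46e-05) in the stem and -0.34 ± 0.20 (adjusted p = 0.342) in the terminal phase. AGT was lower in Frontal over all days (-1.16 ± 0.27, adjusted p = 0.00184), and the gap opened with time. In the stem phase the Frontal minus Occipital difference was 1.08 ± 0.55 (adjusted p = 0.171), in the transition it was -1.01 ± 0.45 (adjusted p = 0.177), and in the terminal phase it was -3.54 ± 0.37 (adjusted p = 4.42e-07), with 2.99 to 11.9 CPM in Frontal and 20.9 to 137 CPM in Occipital libraries. Oligodendrocyte lineage markers were also higher in the terminal Occipital libraries, where their sum was 1776 to 4765 CPM, against 676 to 1895 CPM in Frontal, and their part in the AGT result was not tested. APOE was lower in Frontal (-0.96 ± 0.17, adjusted p = 0.000145) and GJA1 higher (0.80 ± 0.19, adjusted p = 0.00241). By phase, GJA1 passed in the stem phase (1.05, adjusted p = 0.0321) and not in the transition (0.85, adjusted p = 0.137) or the terminal phase (0.51, adjusted p = 0.327). APOE was -1.001 (adjusted p = 0.0241) in the stem and -0.92 (adjusted p = 0.0231) in the terminal phase, and it missed the threshold in the transition (-0.95, adjusted p = 0.0503). AQP4 (-0.30 ± 0.13, adjusted p = 0.0938) and HEPACAM (-0.06 ± 0.082, adjusted p = 0.644) did not pass at E77.

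At E42 the regional differences of APOE and GJA1 were large. APOE was 3.66 ± 0.20, adjusted p = 4.61e-13, higher in Anterior, with 351 to 1111 CPM there and 13 to 101 CPM in Posterior libraries, which did not overlap. GJA1 was 2.10 ± 0.21, adjusted p = 2.32e-08, higher in Anterior. APOE narrowed from 5.31 in the stem phase to 2.22 in the terminal phase, while GJA1 widened from 1.34 to 3.06. The fibroblast and pericyte marker sum was 14120 to 40240 CPM in Anterior and 103 to 419.8 CPM in Posterior libraries, and its part in either gene was not tested. AQP4 changed sign with the phase, at 0.64 ± 0.28 (adjusted p = 0.0811) in the stem phase, 0.72 ± 0.24 (adjusted p = 0.0285) in the transition and -1.10 ± 0.24 (adjusted p = 0.000978) in the terminal phase. AGT did the same, at 2.03 ± 0.54 (adjusted p = 0.00497) and -1.40 ± 0.53 (adjusted p = 0.0433) in the stem and terminal phases. ALDOC was -0.47 ± 0.16, adjusted p = 0.018, over all days, was lost without E42 Anterior day 5 (-0.31, adjusted p = 0.0535) or E42 Posterior day 1 (-0.40, adjusted p = 0.0519), and by phase was 0.31 (adjusted p = 0.424) in the stem phase, -0.48 (adjusted p = 0.207) in the transition and -1.23 ± 0.29 (adjusted p = 0.00181) in the terminal phase. HEPACAM was 0.32 ± 0.087, adjusted p = 0.00324, over all days. It passed in the stem phase (0.42, adjusted p = 0.032) and the transition (0.56, adjusted p = 0.00569), and the terminal value was -0.031 (adjusted p = 0.895).

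**Figure D5:**
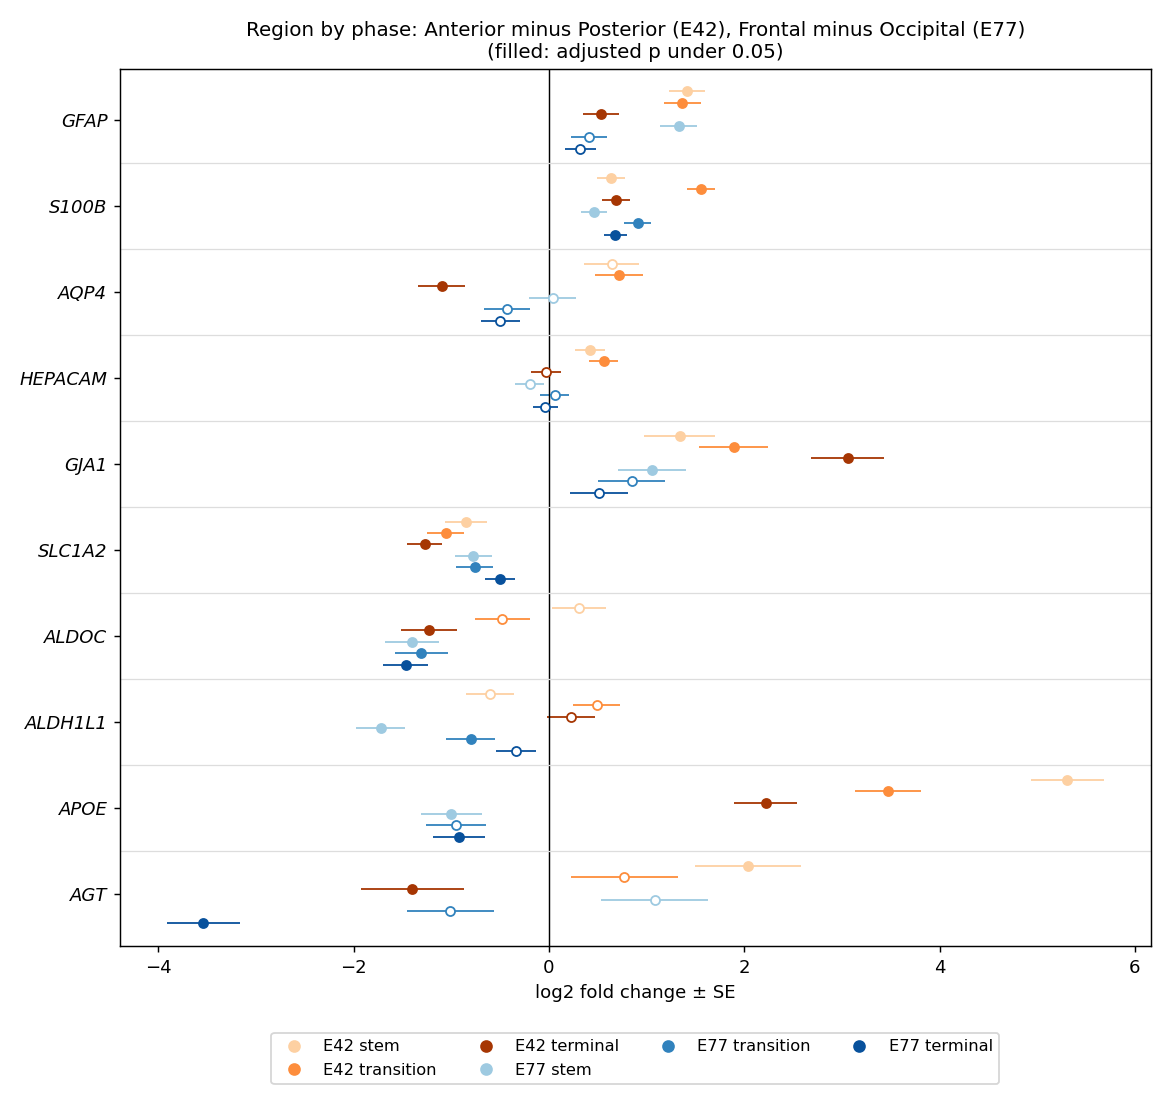
Log2 fold change between regions in each phase, Anterior minus Posterior at E42 (orange) and Frontal minus Occipital at E77 (blue), with SE bars (edgeR, day as a block). Filled points passed an adjusted p of 0.05. S100B lies right and SLC1A2 left of 0 in all 6 points, and APOE is far to the right at E42 and left at E77.

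The region difference itself differed between the ages for 9 of the 10 genes, 1 of them with a higher and 8 with a lower value at E77 (20.6% and 18% of all genes tested). APOE led with -4.62 ± 0.26, adjusted p = 4.36e-12, followed by AGT (-1.62, adjusted p = 0.00323), GJA1 (-1.29, 0.000843), ALDH1L1 (-0.99, 0.000249) and ALDOC (-0.93, 0.00177). These 5 passed with each library left out in turn and under every other alternative run. GFAP (-0.42), HEPACAM (-0.38), S100B (-0.28) and SLC1A2 (0.38) lay closer to the threshold, with adjusted p-values of 0.027, 0.0141, 0.0495 and 0.0495. The S100B call was lost in 21, the SLC1A2 call in 26 and the GFAP call in 5 of 38 fits with 1 library left out.

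Within a series, some pairs of the 10 genes had a more similar course over the days than others. The measure was Pearson's r of log2 CPM over the 9 or 10 days of a series, averaged over the 4 series, which is a description of libraries that share a culture and an order in time. S100B and HEPACAM had the highest mean r of any pair, 0.806 (lowest series 0.749). APOE followed ALDOC (0.778, with 0.339 in E42 Posterior) and AGT (0.776, lowest series 0.598). AQP4 followed SLC1A2 (0.771, lowest series 0.634) and GFAP (0.746, with 0.325 in E77 Frontal). The pairs overlapped, since SLC1A2 also followed GFAP (0.734) and S100B (0.73), and GFAP followed S100B (0.686). AQP4 and ALDOC had r of 0.978 in E77 Frontal and 0.979 in E77 Occipital, but -0.852 in E42 Anterior. ALDH1L1 had no mean r above 0.458 with another of the 10.

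Among 10560 other named genes with a mean of at least 10 CPM, those most like AQP4 by the same measure were MTURN (0.978), PHACTR3 (0.976) and GPRIN1 (0.973), and those most like SLC1A2 were TMEM229B (0.969), PPFIA2 (0.967) and KCNH5 (0.963). For both genes a high value was common, since 9.87% of the genes compared had a mean r over 0.8 with AQP4 and 8.49% with SLC1A2. For APOE they included PALM (0.917) and RAB30 (0.854). For AGT they were RAPGEF5 (0.886), ARHGEF17 (0.854) and MBP (0.837). MBP encodes a myelin protein. For GFAP they were MIEN1 (0.858), SLC7A8 (0.842) and C5H4orf50 (0.834), for ALDOC ARHGEF7 (0.816), TPST2 (0.802) and CYTH3 (0.796) and for GJA1 BMP6 (0.811), TMEM184C (0.775) and IRAK3 (0.763). For S100B they included ADGRB1 (0.907) and MOXD1 (0.873). For HEPACAM they were ME3 (0.77), LRFN4 (0.766) and KBTBD4 (0.756), and for ALDH1L1 TOX4 (0.789), MRPS18B (0.789) and HMGN1 (0.746), all below 0.8.

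The other genes of each pathway are given from lists that hold its usual members, whatever their direction. Of 20 further astrocyte genes, 9 rose and 5 fell from the stem to the terminal phase, where 31.9% of all genes tested rose and 30.4% fell (median 0.20, against 0.00084 for all). At E77 in the terminal phase 15 were higher and 3 lower, against 20.6% and 24.4% of all genes tested (median 1.22, against -0.015). NDRG2, an astrocyte protein linked to stress signalling, rose by 1.78 ± 0.22, adjusted p = 6.17e-08. GJB6 (connexin 30) rose by 1.54 ± 0.28, adjusted p = 2.4e-05, and was higher at E77 by 3.70 ± 0.25, adjusted p = 4.79e-12. DIO2, the enzyme that activates thyroid hormone, rose by 1.23 ± 0.20, adjusted p = 2.43e-06, but was lower at E77 (-2.16 ± 0.28, adjusted p = 9.57e-07). ID4, a regulator that holds progenitors undifferentiated, rose by 0.79 ± 0.11, adjusted p = 2.29e-07. KCNJ10, a potassium channel, fell by 0.69 ± 0.094, adjusted p = 2.09e-07. MT3, a metal-binding protein, and CD44, a hyaluronan receptor, were higher at E77 by 2.01 and 1.96.

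AQP4 is anchored at endfeet by a protein complex. Of 8 genes of the complex 0 rose and 6 fell with differentiation (median -0.31; 31.9% and 30.4% of all genes tested), among them AGRN (-0.77), KCNJ10, UTRN (-0.55) and DAG1 (-0.38), while 7 were higher and 0 lower at E77 in the terminal phase (20.6% and 24.4%), led by MLC1 (1.41) and KCNJ10 (1.03). Of the aquaporins, AQP11 rose (0.72) and AQP1 (-1.32) and AQP3 (-0.88) fell, and AQP9, with at most 4 reads in a library, was not tested. Among connexins, GJB2 rose (1.25) and GJC1 fell (-1.196). HEPACAM2, the near relative of HEPACAM, did not pass (0.016, adjusted p = 0.959). Of the other intermediate filament genes VIM (-0.63), NES (-0.86) and DES (-2.38) fell and PRPH rose (1.196). Of 7 other S100 genes tested, S100A16 rose (0.63), S100A13 did not pass (0.14, adjusted p = 0.274), and S100A1 (-1.17), S100A4 (-3.32), S100A6 (-2.09), S100A10 (-0.54) and S100A11 (-1.14) fell.

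Of 7 other genes of glutamate uptake and recycling, 5 rose and 2 fell (median 0.42), against 31.9% and 30.4% of all genes tested, so the share that fell was near that of all genes. SLC7A11, the cystine/glutamate exchanger, rose by 0.96 ± 0.16, adjusted p = 9.27e-06, and SLC38A3, which exports glutamine from astrocytes, by 0.75 ± 0.14, adjusted p = 3.82e-05. SLC1A3 (GLAST), the glutamate transporter of radial glia, fell by 0.66 ± 0.13, adjusted p = 7.18e-05, as SLC1A2 rose. SLC1A1, the transporter used mainly by neurons, rose by 3.66 ± 0.27, adjusted p = 2.38e-12. Around APOE, 6 of 11 lipid handling genes rose and 4 fell (median 0.32), and here too the share that fell was near the 30.4% of all genes. The sterol exporter ABCG1 rose (1.59 ± 0.15, adjusted p = 2.89e-10), as did the APOE receptor LRP8 (0.89 ± 0.059, adjusted p = 1.21e-13), while the sterol-sensing receptor NR1H3 (-1.29 ± 0.20, adjusted p = 2.33e-06) fell. NR1H3 was low, with means of 1.65 CPM in the stem and 0.674 CPM in the terminal libraries. APOC1, the neighbouring apolipoprotein gene, was higher at E77 in the terminal phase (1.91 ± 0.23, adjusted p = 1.23e-07). APOD, a lipid carrier of the lipocalin family, rose by 3.65 ± 0.41, adjusted p = 1.03e-08.

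Of 10 genes of the renin-angiotensin system besides AGT, 7 could be tested, and 3 rose and 1 fell (MME -0.94) in the terminal phase, against 31.9% and 30.4% of all genes tested. AGTR1, an angiotensin receptor, rose by 1.61 ± 0.29, adjusted p = 1.35e-05, and the converting enzyme ACE by 1.08 ± 0.18, adjusted p = 6.68e-06. Both levels were low, with means from 0.384 to 1.09 CPM for AGTR1 and from 1.45 to 2.96 CPM for ACE. At E77 in the terminal phase AGTR1 was lower (-1.63 ± 0.34, adjusted p = 0.000309). MAS1 had at most 2 reads in any library and was not tested. Of 7 genes of one-carbon metabolism, the pathway of ALDH1L1, 2 rose and 4 fell (median -0.51), and the share that rose was near the 31.9% of all genes. ALDH1L2, its mitochondrial counterpart, rose by 0.98 ± 0.12, adjusted p = 1.25e-08, and SHMT2 (-0.60), MTHFD1 (-0.59) and SHMT1 (-0.59) were among those that fell. ALDOA, the general aldolase, fell by 0.71 ± 0.071, adjusted p = 6.02e-10, while ALDOC rose on the average over the series. By series, ALDOC rose in both E77 series, fell in E42 Anterior and did not pass in E42 Posterior. Of 9 gliogenic transcription factors, 3 rose (ATF3 0.54, NFIB 0.40 and STAT3 0.35) and 1 fell (HES1 -0.25), and the share that rose was near the 31.9% of all genes. At E77 in the terminal phase 6 were higher and 2 lower (20.6% and 24.4% of all genes tested), led by SOX8 (1.41) and SOX9 (1.02). Of 11 reactive astrocyte genes tested, 3 rose (SERPINA3 2.62, CHI3L1 2.57 and CD44 0.46) and 5 fell, with TIMP1 at -1.24, against 31.9% and 30.4% of all genes. The share that rose was near that of all genes. CHI3L1 was low, with means of 0.126 CPM in the stem and 1.14 CPM in the terminal libraries.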

How the data were processed

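RNA of 38 cultures was sequenced as poly(A)-selected, stranded libraries, per the labels' protocols. The authors aligned the reads with STAR and counted them per gene with featureCounts, per the submitters' processing notes; versions, genome build, annotation and the strand setting of the counting are not given in the sources used here. The deposited table holds raw counts and, beside them, RPKM values computed by the authors.

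From the counts, genes were filtered with edgeR's filterByExpr over 12 groups (series by phase), scaled with TMM and tested with edgeR 4.0.16 (quasi-likelihood, robust; R 4.3.3) in 1 fit of all 38 libraries. The Benjamini-Hochberg method adjusted p-values for 20794 genes, and 0.05 was the threshold. Contrasts between phases, and the interaction of age and phase, used group means. Contrasts of age within a phase and of region had the day in vitro as a block, since the labels give the day: of 55 same-day pairs of libraries, 44 had residuals that correlated over 0.1 (-0.096 to 0.68, median 0.22). RPKM values served to compare levels between genes and, as log2(RPKM + 1) or log2(RPKM + 0.1), in limma 3.58.1 as alternatives, besides DESeq2 1.42.0. Counts were also simulated as independent draws, with mean levels and a trended spread taken from these libraries. There the terminal against stem test recovered 97% of 100 genes changed by 1 on the log2 scale. It recovered 100% of those changed by 2 (20794 genes). The terminal age test recovered 87% and 100% (20794 genes). The draws had no day trends, no series differences and no correlation between libraries. These rates therefore hold for independent libraries, which the real ones are not. No 2 of the 703 pairs of libraries agreed within sampling noise (lowest spread 1.91 times the noise).

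The 10 genes, the gene lists and the tests were chosen with earlier results of these data known. Named besides the 10 genes are their paralogues, the 3 genes with the most similar course per gene (mean of at least 10 CPM), and from each list up to 4 genes past the threshold with the largest change between terminal and stem phase and up to 4 between the ages; where fewer than 2 passed, those with the highest mean CPM were taken. Some genes that this rule names are not reported here. No sequences are shown and no coordinates are given, because the build of the deposited table is not given in the sources used here.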

Additional observations from a re-analysis of the deposited data

Results flagged for a closer look

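APOE in the E77 Occipital terminal libraries stood out on day 14, at 1842 CPM, against 1262 to 1334 CPM on days 11, 17 and 20. The gap to the nearest of the others took up 0.876 of the range of the group (Dixon's test). Among 20 groups of 4 libraries that were checked this was 1 case, and chance gives about 1 in 20.

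The terminal against stem change differed between E77 and E42 for 5 of the 10 genes by the interaction test (edgeR). On the log2 scale, E77 minus E42, the differences were AGT 3.82 (adjusted p = 6.3e-05), ALDOC 2.53 (adjusted p = 8.6e-06), APOE 2.25 (adjusted p = 0.00156), HEPACAM -0.73 (adjusted p = 0.00281) and SLC1A2 -2.09 (adjusted p = 6.77e-06). For AGT, ALDOC and APOE the terminal level was above the stem level in both E77 series and below it in E42 Anterior. In E42 Posterior AGT (1.745, adjusted p = 0.0293) and APOE (1.772, adjusted p = 0.00576) rose too, and the ALDOC value was 0.00349 (adjusted p = 0.996). The APOE difference between the ages did not pass between Occipital and Posterior alone.

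The rostral minus caudal difference was not the same at E77 and E42 for 9 genes (interaction test, edgeR). The differences, E77 minus E42, were APOE -4.62 (adjusted p = 4.36e-12), AGT -1.62 (adjusted p = 0.00323), GJA1 -1.29 (adjusted p = 0.000843), ALDH1L1 -0.99 (adjusted p = 0.000249) and ALDOC -0.93 (adjusted p = 0.00177). Closer to the threshold were GFAP -0.42 (adjusted p = 0.027), HEPACAM -0.38 (adjusted p = 0.0141), S100B -0.28 (adjusted p = 0.0495) and SLC1A2 0.38 (adjusted p = 0.0495). The E42 Anterior libraries, which held the high fibroblast and pericyte marker sum, are in both interactions, and its part in them was not tested.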

How the results depend on the processing

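Each comparison was refitted with each of its libraries left out and under the other settings. With a library left out, 2276 single-gene values kept direction and side of the threshold, 131 lost a call, 13 gained 1 and 0 reversed. Under other settings 1176 kept both, 81 lost a call, 23 gained 1 and 10 reversed.

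Averaged terminal against stem, 5 genes in place of 9 were higher with 1 value per series and phase (limma). In E42 Anterior 1 gene in place of 2 was lower in limma on log2(RPKM + 0.1) and log2(RPKM + 1), and left-out libraries gave 2 to 5 higher and 1 to 2 lower. In E77 Frontal 5 in place of 8 were higher in limma on log2(RPKM + 1) and without day 20, and left-out libraries gave 5 to 8.

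From stem to transition, 8655 genes of all tested were called, 4069 with 1 value per day and 3995 with 1 value per series and phase, where 1 of the 10 was higher in place of 4; without E42 Anterior 1 was lower. From transition to terminal, the calls were 8713, 2852 and 3515, and 5 and 2 of the 10 were higher in place of 8. Without E42 Anterior S100B reversed from stem to transition (-0.26).

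Frontal against Anterior alone gave 1 lower gene in the stem phase, 5 higher in the transition, and for the age difference 2146 calls of all genes in place of 4037, with 1 of the 10 smaller; reversed were stem ALDOC (-0.017) and APOE (-2.99), transition APOE (-0.56) and terminal GJA1 (-0.22). Occipital against Posterior alone gave 1 lower gene in the terminal phase and 1022 calls of all genes for the age difference.

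Between E42 regions, 11502 genes were called over all days, 7386 in the stem phase alone, 6459 in the transition and 7445 in the terminal phase; 1, 1 and 4 of the 10 were then lower in place of 2, and 1 without the low-count filter (left-out libraries 1 to 2). Reversed were stem ALDOC (0.31) and terminal AGT (-1.40), AQP4 (-1.10) and HEPACAM (-0.031). Between E77 regions the calls were 6262, 2193 in the transition and 2828 in the terminal phase, with 1 gene higher in place of 3 in each and 3 lower in place of 5 in the transition; stem AGT reversed (1.08).

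Without the replicate block (day in vitro), and with DESeq2 size factors, the DESeq2 Wald test or no low-count filter, 0 genes had a higher region difference at E77 in place of 1 (SLC1A2; left-out libraries 0 to 1), and limma on either RPKM scale gave 5 lower in place of 8. Without the block GFAP (-0.39, adjusted p = 0.126), S100B (-0.29, 0.129) and SLC1A2 (0.39, 0.202) lost their region difference call (edgeR), and no other call of the 10 genes changed.

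The days of a series are the replicates, so their number limits every test, and AGT at E42 rests on 10 to 134 reads per library. Fits by single phase and fits without day 7 were added after seeing the data.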

Other observations

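ALDH1L1 dipped on day 7, the second day without FGF2. In E42 Anterior it was 19 CPM on day 6, 6.07 CPM on day 7 and 16.7 CPM on day 8. The day 7 values were 5.39 CPM in E42 Posterior, 5.42 CPM in E77 Frontal and 9.65 CPM in E77 Occipital, and day 8 stood at 14.4, 14.3 and 24.2 CPM. Day 7 was the lowest day of the series in 4 of 4 series. Of all genes tested, 517 (2.49%) were lower on day 7 than on days 6 and 8 in all 4 series, and 639 (3.07%) were higher. These shares compare day 7 with days 6 and 8 only, not with all days of a series. The dip has no replicate within a series.

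Relatives of the 10 genes moved in both directions. Of 27 paralogues tested, 8 rose and 13 fell from the stem to the terminal phase, where 31.9% of all genes tested rose and 30.4% fell, so the share that rose was near that of all genes. At E77 in the terminal phase 12 were higher and 4 lower, against 20.6% and 24.4% of all genes tested. S100A6, a calcium-binding relative of S100B, fell with differentiation (-2.09 ± 0.21, adjusted p = 9.54e-10) and was higher at E77 (3.28 ± 0.23, adjusted p = 2.64e-11). DES, a muscle-type filament gene, showed the same pair of signs (-2.38 ± 0.21, adjusted p = 2.71e-11, and 1.47 ± 0.31, adjusted p = 0.000388). SLC1A4 (-0.59 ± 0.11, adjusted p = 0.000121) and SLC1A5 (-1.35 ± 0.35, adjusted p = 0.00345), which carry neutral amino acids, were lower at E77 in the terminal phase. S100A16 (2.29 ± 0.18, adjusted p = 3.32e-10), S100A13 (1.40 ± 0.14, adjusted p = 1.02e-08) and PRPH (2.40 ± 0.24, adjusted p = 7.3e-09), a filament gene of peripheral neurons, were higher (edgeR, Benjamini-Hochberg).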
